A study of Mus musculus with 12 samples.

Results

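Dlk1, Rtl1 and Dio3 are the paternally expressed protein-coding genes of the imprinted Dlk1-Dio3 domain on mouse chromosome 12. They were taken as the probe sets that the array annotation assigns to each of them, which gave 1 probe set per gene and 3 genes of the 19938 that had a probe set of their own. Meg3, the maternally expressed RNA of the same domain, also had 1 probe set and served as the reference. The series asked how expression differs between mouse induced pluripotent stem (iPS) cells that can and cannot form a mouse by tetraploid complementation, in which stem cells are combined with a tetraploid embryo so that the fetus derives from the stem cells. The labels give lines LiPS-45 and LiPS-57 as competent in this assay, and lines LiPS-47 and LiPS-50 as not competent. All 4 lines came from C57BL/6J embryonic fibroblasts reprogrammed with 3 factors and were grown in medium for embryonic stem cells. Each line had 3 cultures, described as biological repeats, with 1 array per culture, which makes 12 arrays. The labels do not say whether a line is 1 clone or whether feeder cells were present.

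In an imprinted domain, a gene is read mainly from the chromosome inherited from either the mother or the father, and DNA methylation at a control region marks the parental copies. In the Dlk1-Dio3 domain the father's copy gives Dlk1, Rtl1 and Dio3, and the mother's copy gives Meg3, Rian and a large group of microRNAs and small nucleolar RNAs. The domain is known in iPS biology because Meg3 and its neighbours are silenced in some mouse lines. Dlk1 encodes a membrane protein related to the Notch ligands that holds preadipocytes in an undifferentiated state. Rtl1 encodes a protein derived from a retrotransposon and is needed in the placenta. Dio3 encodes the deiodinase that inactivates thyroid hormone.

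The maternal strand opposite Rtl1 carries microRNA genes whose products pair perfectly with the Rtl1 transcript and can direct its cleavage. They are shown because they join the maternal and the paternal RNAs of the domain at 1 place. RefSeq mature sequences (GRCm38.p6, plus strand of chromosome 12) are given 5′ to 3′, with the seed, bases 2 to 8, in capitals.
miR-431-5p: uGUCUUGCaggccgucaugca
miR-433-3p: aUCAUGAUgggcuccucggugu
miR-127-3p: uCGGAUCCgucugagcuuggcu
miR-434-3p: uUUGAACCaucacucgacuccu
miR-136-5p: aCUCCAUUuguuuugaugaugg
These lie in that order at chr12:109590459-109590479, chr12:109591781-109591802, chr12:109592888-109592909, chr12:109594565-109594586 and chr12:109595331-109595352. The 5 seeds all differ from each other.

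The stretch of 250 bases before the annotated start was compared for Meg3, which had the largest difference of the 4 genes between lines, and Dio3, the paternal gene at the far end of the domain. Both are on the plus strand (RefSeq, GRCm38.p6), Meg3 at chr12:109540746-109540995 and Dio3 at chr12:110278980-110279229. Capitals mark TATAAA, TGACGTCA (the cyclic AMP response element), CCAAT and GGGCGG on either strand.
Meg3: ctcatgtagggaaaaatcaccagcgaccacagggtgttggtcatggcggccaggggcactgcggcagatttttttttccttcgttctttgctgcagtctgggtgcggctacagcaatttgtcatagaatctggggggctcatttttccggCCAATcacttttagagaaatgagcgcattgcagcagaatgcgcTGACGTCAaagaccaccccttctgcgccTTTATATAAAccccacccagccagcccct
Dio3: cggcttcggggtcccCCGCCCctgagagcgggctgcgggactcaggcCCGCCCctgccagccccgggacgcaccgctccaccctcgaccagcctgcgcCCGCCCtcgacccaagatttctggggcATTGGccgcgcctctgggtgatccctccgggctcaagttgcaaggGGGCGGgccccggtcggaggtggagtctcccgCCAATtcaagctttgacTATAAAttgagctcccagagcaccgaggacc
Both held TATAAA and CCAAT, the Meg3 stretch held TGACGTCA, and the Dio3 stretch held GGGCGG. In the Meg3 stretch the TATAAA matches of the plus and minus strands overlap and form 1 run. Of 32851 stretches of this length in the RefSeq table, 12.4% held TATAAA, 1.55% TGACGTCA, 33.8% CCAAT and 32.7% GGGCGG. The stretch before Dlk1, which is not printed, held none of the marked motifs. The Dio3 stretch had 21 CG pairs, the Meg3 stretch 10 and the Dlk1 stretch 8. Such matches and counts describe the letters only.

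Values are intensities as deposited, and differences are on the scale log2(intensity + 1), with standard deviations (SD) over 3 cultures. That scale understates the change of dim genes. Between probe sets only changes were compared, since their levels share no scale. All 14 of 14 pluripotency markers were measured, and each had a mean over the 12 arrays above the 40th percentile of probe set means. Their summed intensity was 23181 to 24410 over the 12 arrays. The median level of this list was lower in LiPS-50, at 9.55 to 9.60, than in the other lines, at 9.74 to 9.88. That level follows the genes in the middle of the list, and the members showed no shared shift. Their median difference from LiPS-50 was -0.0031, 0.043 and -0.059 for LiPS-45, LiPS-57 and LiPS-47. Against LiPS-50, 6, 6 and 5 of the 14 were called for LiPS-45, LiPS-57 and LiPS-47. Of those called, 4, 4 and 2 were lower in LiPS-50, among them Lin28a and Tdgf1. The other 2, 2 and 3 were higher there, among them Fgf4. LiPS-50 stood apart from the other lines over the whole array, with 16.5%, 15.6% and 15.8% of all probe sets called against LiPS-45, LiPS-57 and LiPS-47, and its values are read against these shares.

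Dlk1 was higher in LiPS-50 than in each other line, and the other lines overlapped each other. The intensities were 440, 480 and 391 in LiPS-45, 415, 460 and 490 in LiPS-57, 395, 442 and 328 in LiPS-47, and, for LiPS-50, 847, 675 and 749. The lowest LiPS-50 culture lay above the highest culture of any other line. On the log2 scale the order was LiPS-50 at 9.56 ± 0.164, LiPS-57 at 8.83 ± 0.120, LiPS-45 at 8.77 ± 0.147 and LiPS-47 at 8.59 ± 0.217 (SD, n = 3 each). Dlk1 fell by 0.97 in LiPS-47 against LiPS-50, a 1.95-fold difference (SE 0.120, limma adjusted p = 2.07e-04). It fell by 0.79 in LiPS-45, or 1.73-fold (limma adjusted p = 8.71e-04), and by 0.73 in LiPS-57, or 1.66-fold (limma adjusted p = 0.00156). The other neighbours in this order did not differ beyond their spread. LiPS-45 minus LiPS-57 was -0.060 (95% interval -0.32 to 0.20, limma adjusted p = 0.952), and LiPS-45 minus LiPS-47 was 0.17 (-0.087 to 0.44, limma adjusted p = 0.721). LiPS-57 minus LiPS-47 was 0.23 (-0.027 to 0.50, limma adjusted p = 0.762).

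Against LiPS-50, 1 of the 3 genes was called in each comparison, at an adjusted p under 0.05. The share of all probe sets called was 16.5% for LiPS-45, 15.6% for LiPS-57 and 15.8% for LiPS-47. Among the other lines 0 of the 3 genes were called, where the background was 0.266% for LiPS-45 against LiPS-57, 0.0622% for LiPS-45 against LiPS-47 and 0.159% for LiPS-57 against LiPS-47. The LiPS-50 comparisons share the LiPS-50 cultures. The p-values rest on how cultures of the same line vary.

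**Figure D1:**
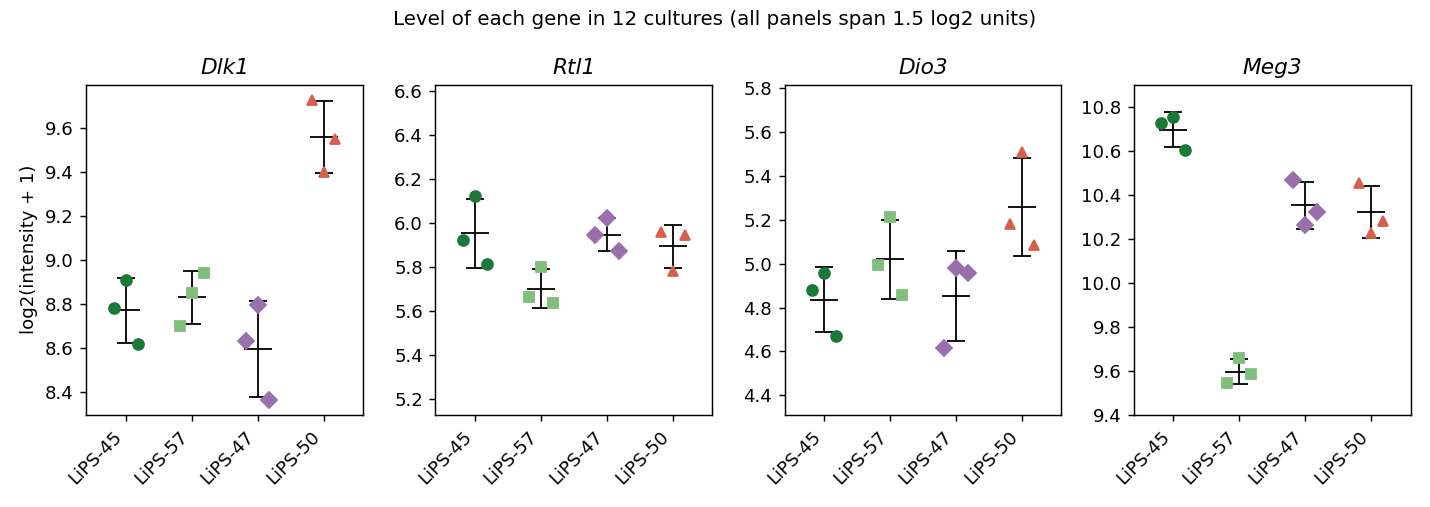
Level of Dlk1, Rtl1, Dio3 and Meg3 as log2(intensity + 1) on the vertical axis, in 3 cultures of each of 4 lines; points are cultures, the horizontal mark is the mean and the bar is the SD. Dlk1 stands apart in LiPS-50, from 9.40 to 9.73, and Meg3 in LiPS-57, from 9.55 to 9.66, while the lines lie closer together for Rtl1 and Dio3.

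Rtl1 was lowest in LiPS-57 and nearly level in the other 3 lines, and no difference passed the test. Its intensities were 49.8, 54.8 and 48.7 in LiPS-57, against 59.6, 68.7 and 55.3 in LiPS-45, 60.7, 64.1 and 57.6 in LiPS-47, and 61.2, 54.1 and 60.7 in LiPS-50. All LiPS-57 cultures lay below all of LiPS-45 and LiPS-47, and they overlapped those of LiPS-50. The line means were 5.95 ± 0.156 in LiPS-45, 5.95 ± 0.0750 in LiPS-47, 5.90 ± 0.0978 in LiPS-50 and 5.70 ± 0.0890 in LiPS-57 (SD, n = 3 each). LiPS-45 minus LiPS-57 was 0.25 (SE 0.0870, 95% interval 0.063 to 0.44, limma adjusted p = 0.483). LiPS-57 minus LiPS-47 was -0.25 (-0.44 to -0.057, limma adjusted p = 0.563), and LiPS-57 minus LiPS-50 was -0.19 (-0.38 to -0.0054, limma adjusted p = 0.173). These 3 values share the LiPS-57 cultures. The other 3 lines differed from each other by at most 0.058, which was LiPS-45 minus LiPS-50 (95% interval -0.13 to 0.25). The Rtl1 probe set has a mean at about the middle of the array, at the 50.3th percentile. The labels do not say which strand its probes read, so signal of Rtl1 and of RNA from the opposite strand cannot be told apart here.

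Dio3 was dim, with a mean at the 36.2th percentile of probe sets. Its intensities were 28.4, 30.1 and 24.5 in LiPS-45, 30.8, 36.1 and 28.0 in LiPS-57, 23.5, 30.6 and 30.1 in LiPS-47, and, for LiPS-50, 35.2, 44.5 and 32.9. The LiPS-50 cultures lay above all of LiPS-45 and LiPS-47 and overlapped those of LiPS-57. The line means were 5.26 ± 0.223 in LiPS-50, 5.02 ± 0.180 in LiPS-57, 4.85 ± 0.204 for LiPS-47 and 4.83 ± 0.148 for LiPS-45 (SD, n = 3 each). LiPS-45 minus LiPS-50 was -0.42 (SE 0.136, limma adjusted p = 0.0530) and LiPS-47 minus LiPS-50 was -0.41 (limma adjusted p = 0.0643), both above the threshold. LiPS-57 minus LiPS-50 was -0.24 (limma adjusted p = 0.307). LiPS-45 minus LiPS-57 was -0.19 (95% interval -0.48 to 0.11) and LiPS-57 minus LiPS-47 was 0.17 (-0.13 to 0.46). Without LiPS-47 replicate 1 the LiPS-45 difference from LiPS-50 stayed at -0.42 and passed, at a limma adjusted p of 0.0378. Without LiPS-50 replicate 3 it was -0.51 and passed as well (limma adjusted p = 0.0440). Only these 2 of the 12 omissions of 1 array passed. Over all 12 the difference ranged from -0.51 to -0.30, with a limma adjusted p of up to 0.193. LiPS-47 minus LiPS-50 passed in 0 of the 12 (limma adjusted p from 0.0519 to 0.228).

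Meg3 gave another order of the lines than Dlk1 and Dio3, whereas the means of Rtl1 had the same order as those of Meg3. The Rtl1 means of LiPS-45, LiPS-47 and LiPS-50 differed by at most 0.058, and their order changed when single arrays were left out. The Meg3 intensities were 1694, 1726 and 1556 in LiPS-45, 1417, 1228 and 1279 in LiPS-47, 1401, 1196 and 1244 in LiPS-50, and 746, 806 and 766 in LiPS-57. Only LiPS-47 and LiPS-50 overlapped. Meg3 was lower in LiPS-57 than in LiPS-47 by 1.69-fold (log2 difference -0.76, SE 0.0786, limma adjusted p = 0.00186) and than in LiPS-50 by 1.65-fold (-0.73, limma adjusted p = 9.00e-05). LiPS-45 minus LiPS-50 was 0.38 (limma adjusted p = 0.00627), LiPS-45 minus LiPS-47 was 0.34 (limma adjusted p = 0.192), and LiPS-47 minus LiPS-50 was 0.031 (limma adjusted p = 0.859). LiPS-57 was thus lowest for Meg3 and Rtl1, second for Dlk1 and second for Dio3.

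**Figure D2:**
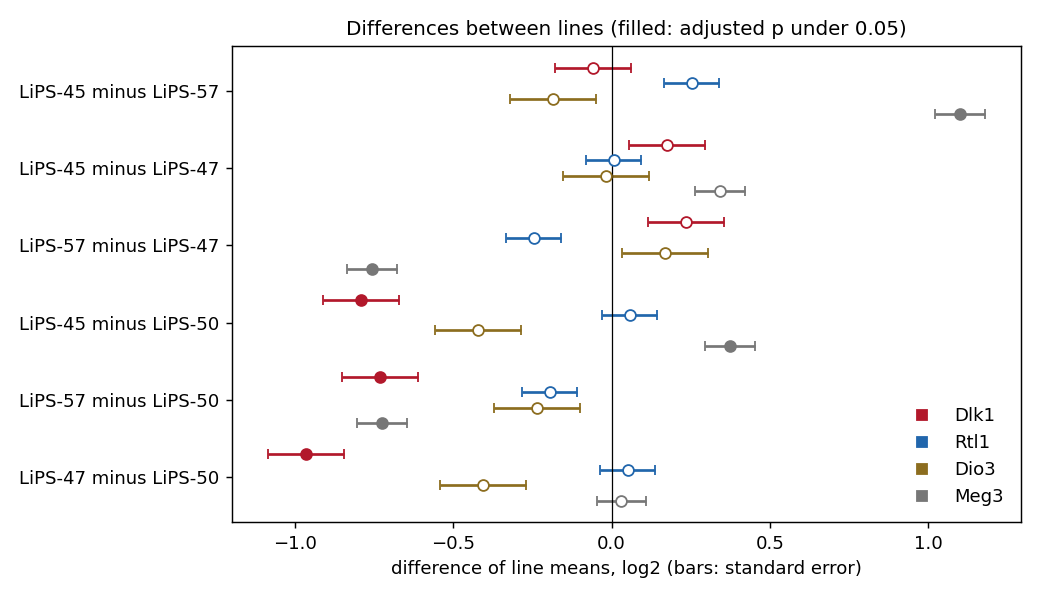
Differences of line means on the log2 scale (horizontal axis) for Dlk1, Rtl1, Dio3 and Meg3 in the 6 pairs of lines; bars are standard errors, and filled points have an adjusted p under 0.05. The 3 filled Dlk1 points are the comparisons with LiPS-50, at -0.79, -0.73 and -0.97, whereas Meg3 reaches 1.10 between LiPS-45 and LiPS-57.

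Each gene's change was then set against that of Meg3 by testing the log2 value minus the Meg3 value of the same array. Relative to Meg3, Dlk1 was higher in LiPS-57, where Meg3 was low, and in LiPS-50, where Dlk1 itself was high, than in the other lines. Centred on the mean of all arrays, the value was 0.54 ± 0.106 in LiPS-57, 0.54 ± 0.0555 in LiPS-50, -0.45 ± 0.254 in LiPS-47 and -0.62 ± 0.0736 in LiPS-45 (SD, n = 3 each). The cultures ranged from 0.46 to 0.66 in LiPS-57 and from 0.48 to 0.58 in LiPS-50, and those of LiPS-47 and LiPS-45 all lay below -0.16. LiPS-57 minus LiPS-50 was -0.0060 (95% interval -0.26 to 0.25, limma adjusted p = 0.962). LiPS-45 minus LiPS-57 was -1.16 (SE 0.121, limma adjusted p = 7.32e-09) and LiPS-45 minus LiPS-50 was -1.17 (limma adjusted p = 2.98e-07). LiPS-57 minus LiPS-47 was 0.99 (limma adjusted p = 1.68e-06), LiPS-47 minus LiPS-50 was -0.997 (limma adjusted p = 5.34e-06), and LiPS-45 minus LiPS-47 was -0.17 (limma adjusted p = 0.193).

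Rtl1 differed less than Meg3 in each pair of lines in which Meg3 was called. Relative to Meg3 it was highest in LiPS-57, at 0.47 ± 0.0485, and lower in LiPS-47 (-0.038 ± 0.147), LiPS-50 (-0.058 ± 0.0807) and LiPS-45 (-0.38 ± 0.0963) (SD, n = 3 each). LiPS-45 minus LiPS-57 was -0.85 (SE 0.110, limma adjusted p = 1.17e-07), LiPS-57 minus LiPS-47 was 0.51 (limma adjusted p = 1.34e-04) and LiPS-57 minus LiPS-50 was 0.53 (limma adjusted p = 1.03e-04). LiPS-45 minus LiPS-47 was -0.34 (limma adjusted p = 0.0135), which was lost without LiPS-45 replicate 1 (-0.31, adjusted p = 0.0540) or LiPS-47 replicate 2 (-0.26, adjusted p = 0.0754). LiPS-45 minus LiPS-50 was -0.32 (limma adjusted p = 0.0152), which was lost without LiPS-45 replicate 1 (-0.29, adjusted p = 0.0610) or LiPS-50 replicate 3 (-0.27, adjusted p = 0.0669). LiPS-47 minus LiPS-50 was 0.020 (95% interval -0.21 to 0.25).

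Dio3 relative to Meg3 was also highest in LiPS-57, at 0.67 ± 0.142, followed by LiPS-50 (0.19 ± 0.302), LiPS-47 (-0.25 ± 0.308) and LiPS-45 (-0.61 ± 0.0693) (SD, n = 3 each). LiPS-45 minus LiPS-57 was -1.29 (SE 0.149, limma adjusted p = 2.53e-08), LiPS-57 minus LiPS-47 was 0.92 (limma adjusted p = 6.01e-06) and LiPS-45 minus LiPS-50 was -0.80 (limma adjusted p = 2.45e-04). LiPS-57 minus LiPS-50 was 0.49 (limma adjusted p = 0.00374). LiPS-45 minus LiPS-47 was -0.36 (limma adjusted p = 0.0357), and LiPS-47 minus LiPS-50 was -0.44 (limma adjusted p = 0.0771). The call for LiPS-45 against LiPS-47 was lost without any of LiPS-45 replicates 1, 2 and 3 (adjusted p 0.0690, 0.0596 and 0.0866) or LiPS-47 replicates 2 and 3 (0.176 and 0.117). The difference of LiPS-47 from LiPS-50 passed without LiPS-47 replicate 2 (-0.55, adjusted p = 0.0397) or LiPS-50 replicate 1 (-0.54, adjusted p = 0.0486). Only these 2 of the 12 omissions of 1 array passed, and the limma adjusted p reached 0.385.

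Most probe sets differed from Meg3 in the pairs of lines in which Meg3 itself differed, so each count of genes is read against that share. For LiPS-45 against LiPS-57, 3 of 3 genes were called beside 99.9% of all probe sets, and for LiPS-57 against LiPS-47, 3 of 3 beside 99.8%. For LiPS-57 against LiPS-50, 2 of 3 genes were called beside 96.8%, and Dlk1 was the gene that was not. For LiPS-45 against LiPS-47, 2 of 3 were called beside 75.4%, and for LiPS-45 against LiPS-50, 3 of 3 beside 73.0%. For LiPS-47 against LiPS-50, where Meg3 was level, 1 of 3 was called beside 8.84%, and this was Dlk1. Every probe set carries the Meg3 value of the array in this test.

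**Figure D3:**
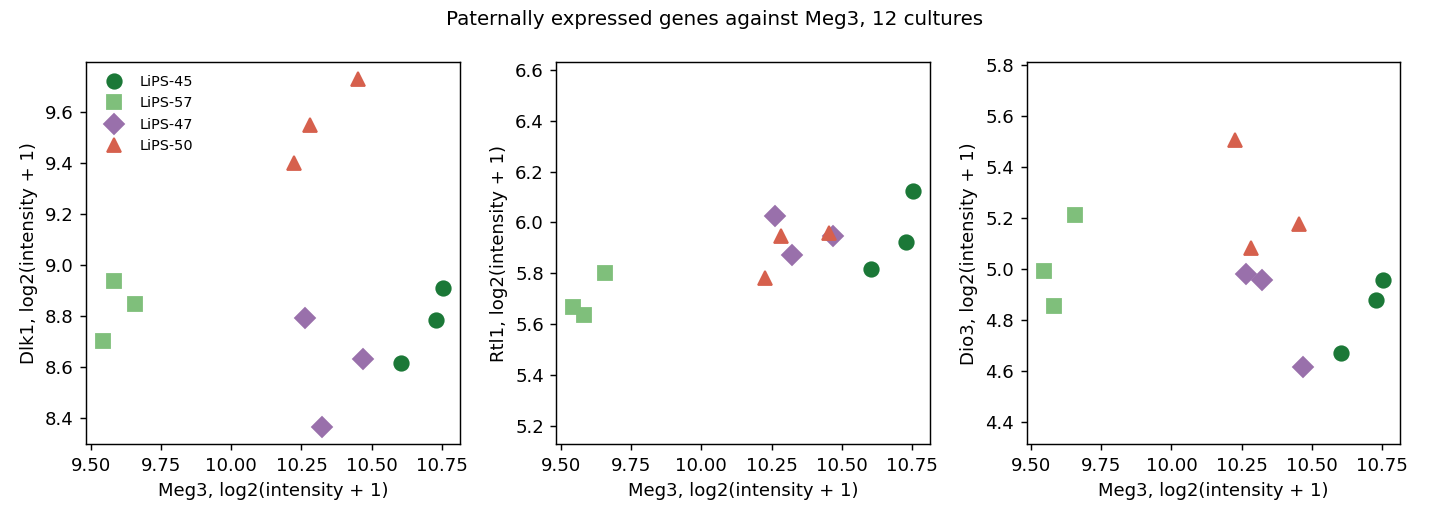
Dlk1, Rtl1 and Dio3 (vertical axes) against Meg3 (horizontal axes), all as log2(intensity + 1), in 12 cultures, with 1 symbol per line. Dlk1 separates LiPS-50 upwards, from 9.40 to 9.73, at a Meg3 level shared with LiPS-47, and the LiPS-57 cultures lie to the left at a Meg3 level of 9.55 to 9.66.

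From culture to culture within lines, the relation to Meg3 did not pass the test for any of the 3 genes. After line means were removed, Meg3 and Dlk1 gave Pearson r = 0.485 (Spearman rho 0.524, exact permutation within lines, two-sided p = 0.225, adjusted p = 0.406, 12 arrays). Meg3 and Rtl1 gave r = 0.525 (rho 0.587, exact permutation p = 0.119, adjusted p = 0.267). Meg3 and Dio3 gave r = -0.217 (rho -0.217, exact permutation p = 0.564, adjusted p = 0.721). Dlk1 and Rtl1 gave r = 0.718 (rho 0.748, exact permutation p = 0.0231, adjusted p = 0.0694). Without the 2 arrays farthest from the median of the x measure, r was 0.371, 0.614, 0.176 and 0.694 in that order. Dio3 gave r = -0.103 with Dlk1 and 0.203 with Rtl1. In all, 9 relations were computed, each over 1296 permutations, which can give a p of 7.72e-04 at the smallest.

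Markers of fibroblasts and feeder cells moved with Dlk1, both between lines and within them. Of the 36 genes on that list, 35 were measured, and 32 were called higher in LiPS-50 than in each other line, the same 32 genes each time, while 0 were called among the other 3 lines. This is 91.4% of the measured list, beside 15.6% to 16.5% of all probe sets against LiPS-50 and 0.0622% to 0.266% among the other lines. The summed intensity was 50817 to 56646 in LiPS-50, 36954 to 43600 in LiPS-45, 37265 to 40445 in LiPS-57 and 31927 to 39310 in LiPS-47. No marker was at 0, and 1 of the 35 lay below the 40th percentile. The list's median difference from LiPS-50 was -0.63, -0.62 and -0.80 for LiPS-45, LiPS-57 and LiPS-47, beside -0.00024, 0.00019 and 0.014 for all probe sets. Pdgfra, a receptor of mesenchymal cells, was lower than in LiPS-50 by 2.00-fold, 2.16-fold and 2.38-fold for LiPS-45, LiPS-57 and LiPS-47 (limma adjusted p = 1.55e-04, 8.65e-05 and 2.91e-05). The collagen gene Col3a1 was lower by 1.81-fold, 1.79-fold and 2.05-fold in the same order. Of the 35 markers, 6, 9 and 6 had a larger fall than Dlk1 in these comparisons.

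Within lines, Dlk1 and the list median gave r = 0.899 (rho 0.916, exact permutation p = 0.00154, adjusted p = 0.0104, r without the 2 farthest arrays 0.835). Rtl1 and the list median gave r = 0.754 (rho 0.867, exact permutation p = 0.00231, adjusted p = 0.0104, r without the 2 farthest arrays 0.785), although Rtl1 did not rise in LiPS-50. Dio3 gave r = -0.186 (rho -0.0490, exact permutation p = 0.641, adjusted p = 0.721), and 0.312 without the 2 farthest arrays. Without line LiPS-45 the Dlk1 and Rtl1 relations stood at r = 0.902 and 0.761 (exact permutation, adjusted p = 0.0625 each), and without LiPS-47 at 0.867 and 0.908 (adjusted p = 0.0972 each). The list median was the value of Mmp2, a matrix metalloproteinase, on all 12 arrays. Mmp2 was also the gene most like Dlk1 of 12953 genes ranked over these arrays (r = 0.987). With that median as a covariate in the fit, Dlk1 differed from LiPS-50 by -0.12, -0.095 and -0.15 for LiPS-45, LiPS-57 and LiPS-47 (limma adjusted p = 0.833, 0.874 and 0.863). Since this covariate follows Dlk1 so closely in the same arrays, the fit cannot tell the markers and Dlk1 apart. In bulk samples such as these, fewer cells of a type and less RNA per cell cannot be told apart. The part of these markers in the Dlk1 result was not tested further.

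**Figure D4:**
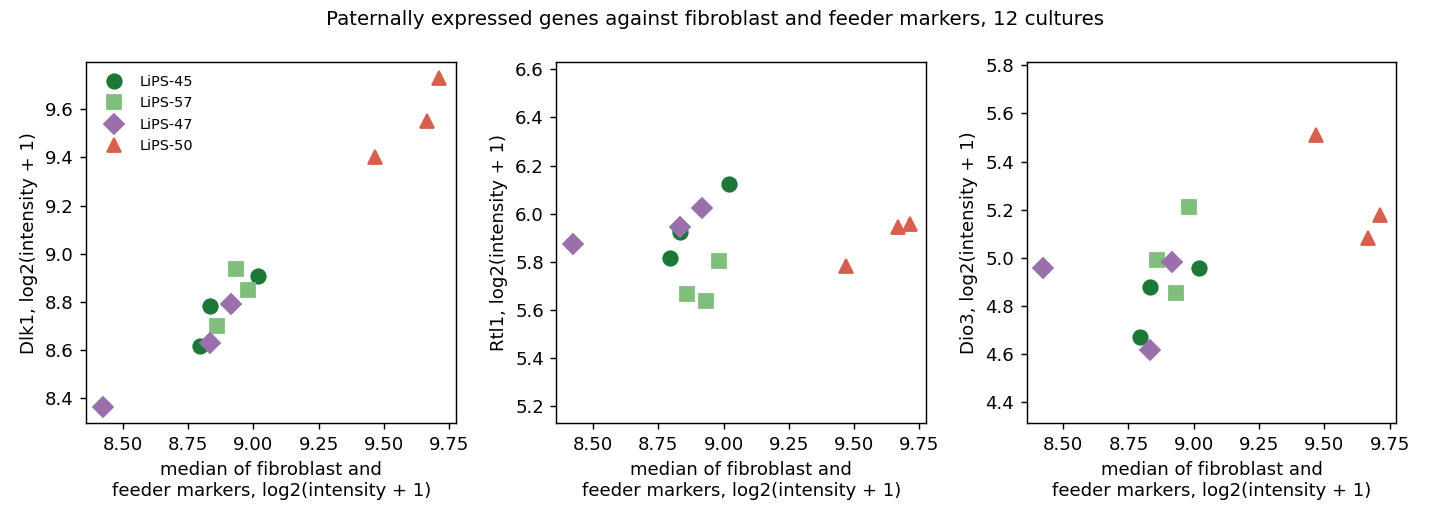
Dlk1, Rtl1 and Dio3 (vertical axes) against the median of 35 fibroblast and feeder markers (horizontal axes), all as log2(intensity + 1), in 12 cultures, with 1 symbol per line. The LiPS-50 cultures have marker medians of 9.47 to 9.71, above the 8.42 to 9.02 of the other lines, and Dlk1 is high in the same cultures, whereas Rtl1 is not.

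Other cell type lists were also measured in LiPS-50. The summed intensity of 14 primitive endoderm markers was 6102 to 6943 there and 4391 to 5466 in the other lines, and that of 8 preadipocyte and muscle progenitor markers was 416 to 430 against 351 to 397. Of the latter 8 genes, 2 were called lower than in LiPS-50 for LiPS-45 and for LiPS-47 (25% each), and 0 for LiPS-57. The median level of the primitive endoderm list was 6.30 to 6.40 in LiPS-50 and 6.40 to 6.72 in the other lines. That level follows the genes in the middle of the list, and most called members went the other way. The median difference of the members from LiPS-50 was -0.16, -0.19 and -0.12 for LiPS-45, LiPS-57 and LiPS-47. Of its 14 members 8, 7 and 6 were called against LiPS-50 in LiPS-45, LiPS-57 and LiPS-47. That is 57.1%, 50% and 42.9%, beside 16.5%, 15.6% and 15.8% of all probe sets. Of those called, 6, 6 and 5 were higher in LiPS-50 and 2, 1 and 1 lower. The list contains Pdgfra and Sparc, which are also on the fibroblast list. Foxa2 of this list, a transcription factor of endoderm, differed from most called members and was lower in LiPS-50, by 1.28 against LiPS-45 (limma adjusted p = 6.31e-06). The 12 trophectoderm markers summed to 3213 to 3473 in LiPS-50, which overlapped the 2807 to 3486 of LiPS-57. Their median level was 6.95 to 7.15 in LiPS-50 and 6.39 to 6.66 in the other lines, without overlap, but it follows the genes in the middle of the list. The median difference of the members from LiPS-50 was small, at 0.0081, -0.083 and 0.047 for LiPS-45, LiPS-57 and LiPS-47. Higher in LiPS-50 were 4, 4 and 4 members, and lower there 2, 1 and 4. Of the 12, 6, 5 and 8 were thus called against LiPS-50 in the same order. This is 50%, 41.7% and 66.7% of the list, beside the same shares of all probe sets. Krt7, a keratin gene, was higher in LiPS-50 by 2.07-fold, 2.06-fold and 1.77-fold, and the transcription factor gene Ascl2 by 2.65-fold, 2.41-fold and 2.40-fold. Eomes, another transcription factor gene, was lower there by 2.93-fold, 2.43-fold and 2.47-fold. No list had a marker at 0, and their part in the Dlk1 result was not tested.

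The test of competence called no probe set on the array, so its lack of calls is not particular to the 3 genes. In the test with line as a random block, 0 of the 3 were called, beside 0% of all probe sets, of which 2226 had a limma p under 0.05 before adjustment. Competent minus other lines was -0.28 for Dlk1 (95% interval -0.72 to 0.17, limma adjusted p = 0.740). It was -0.094 for Rtl1 (-0.29 to 0.098, adjusted p = 0.793) and -0.13 for Dio3 (-0.43 to 0.18, adjusted p = 0.825). Competence is a property of the line, so this comparison rests on 2 lines against 2.

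Part of the maternally expressed RNAs of the domain were, like Meg3, called lower in LiPS-57. Of 58 on the list, 41 were measured. Against LiPS-57, 21, 11 and 19 were called higher for LiPS-45, LiPS-47 and LiPS-50, and 0 lower in any of these. These are 51.2%, 26.8% and 46.3% of the measured list, beside 0.266%, 0.159% and 15.6% of all probe sets. The list median was 0.64 for LiPS-45 minus LiPS-57, beside 0.0019 for all probe sets. Between LiPS-45 and LiPS-50, 15 (36.6%, beside 16.5%) were higher in LiPS-45, and between LiPS-45 and LiPS-47 it was 1 (Mir382, 2.44%, beside 0.0622%). Between LiPS-47 and LiPS-50, 2 were higher in LiPS-47 (Mir679 and Mir487b). That is 4.88% of the list, below the 15.8% of all probe sets. The noncoding RNA Rian was 2.22-fold lower in LiPS-57 than in LiPS-47 (limma adjusted p = 0.00294) and 1.77-fold lower than in LiPS-50 (limma adjusted p = 9.49e-04). The list was chosen knowing that it differs between these lines.

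Of the 7 microRNA genes listed opposite Rtl1, 4 had a probe set of their own (Mir431, Mir127, Mir434 and Mir136), and only Mir127 was called in any pair of lines. Its intensities were 106, 108 and 114 in LiPS-45, 84.5, 82.8 and 66.5 in LiPS-47, 72.9, 55.4 and 48.9 in LiPS-50, and 55.4, 48.1 and 47.9 in LiPS-57. The LiPS-45 cultures lay above all others, and those of LiPS-50 and LiPS-57 overlapped. Mir127 in LiPS-45 exceeded LiPS-57 by 2.14-fold (limma adjusted p = 0.00219) and LiPS-50 by 1.86-fold (limma adjusted p = 6.97e-04). In each of these pairs it was 1 of the 4 genes (25%), beside 0.266% and 16.5% of all probe sets. LiPS-57 minus LiPS-47 was -0.61 for Mir127 (limma adjusted p = 0.169), and LiPS-45 minus LiPS-47 was 0.49 (limma adjusted p = 0.277). Mir431 stood between 5.93 and 5.98 in all 4 line means. Mir434 and Mir136 were dim, with line means of 3.38 to 3.74, and were called in no comparison. The array reads total RNA labelled after amplification, so these values need not follow the mature microRNAs.

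The chromosome 12 neighbours outside the domain were counted in the same way. Of 19 listed, 18 were measured. In each comparison with LiPS-50, 1 of the 18 (5.56%) was called, beside 15.6% to 16.5% of all probe sets. Among LiPS-45, LiPS-57 and LiPS-47, 0 were called, beside 0.0622% to 0.266% of all probe sets. Wdr25, on the Dlk1 side of the domain, was lower in LiPS-50 than in LiPS-45, by 1.27-fold (limma adjusted p = 0.00510), and than in LiPS-57, by 1.19-fold (limma adjusted p = 0.0301). Its intensities were 82.5, 74.9 and 76.8 in LiPS-50 and 86.0 to 107 in the other 9 cultures, so the groups did not overlap, and its direction was opposite to that of Dlk1. Ppp2r5c, a phosphatase subunit gene beyond Dio3, in LiPS-50 exceeded LiPS-47 by 1.17-fold (limma adjusted p = 0.0394). Begain, which lies between Wdr25 and Dlk1, ranged from 40.9 to 55.8 over the 12 cultures and was called in no comparison.

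For the pathway of each gene, lists were counted against the same background. Of 24 Notch ligands, receptors and targets, all were measured. Against LiPS-50, 1 was higher and 3 lower in LiPS-45, 2 higher and 3 lower in LiPS-57, and 0 higher and 3 lower in LiPS-47, with 0 called among the other lines. Adam10, a protease that cleaves Notch, was lower than in LiPS-50 by 0.47, 0.48 and 0.47 for LiPS-45, LiPS-57 and LiPS-47 (limma adjusted p = 0.00453, 0.00414 and 0.00403). Rbpj, the DNA-binding partner of activated Notch, was lower by 0.29 in LiPS-57 and 0.31 in LiPS-47. Notch1, a receptor, was lower by 0.31 in LiPS-45 and in LiPS-47. The ligand gene Jag1 was higher by 0.30 in LiPS-45, and the ligand gene Dll3 by 0.45 in LiPS-57. These counts are 12.5% to 20.8% of the list, near the background of 15.6% to 16.5%.

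Of 16 thyroid hormone genes, which include the deiodinases, 13 were measured. Against LiPS-50, 2 were higher and 1 lower in LiPS-45, and 3 higher and 1 lower in both LiPS-57 and LiPS-47, with 0 called among the other lines. Crym, which binds thyroid hormone in the cytoplasm, was higher than in LiPS-50 by 0.46, 0.48 and 0.68 for LiPS-45, LiPS-57 and LiPS-47 (limma adjusted p = 0.00709, 0.00554 and 5.61e-04). The transporter gene Slc16a10 was higher by 0.49, 0.34 and 0.56 in the same order. Rxra, a partner of the thyroid hormone receptors, was lower by 0.39, 0.32 and 0.34. The calls are 23.1%, 30.8% and 30.8% of the 13 genes, beside 16.5%, 15.6% and 15.8% of all probe sets.

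The retrotransposon Gag-like family of Rtl1 had 8 of 11 members measured, and 2 were called, both lower in LiPS-45 than in LiPS-50. Rtl5 differed by -0.36 (limma adjusted p = 0.0188) and Peg10, a placental gene that is itself paternally expressed, by -0.28 (limma adjusted p = 0.0345). These 2 genes are 25% of the 8, beside 16.5% of all probe sets in that pair. Family members were called in no other pair of lines.

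Paternally expressed imprinted genes elsewhere in the genome had 17 of 22 members measured. Against LiPS-50, 1 was higher and 4 lower in LiPS-45, 2 higher and 4 lower in LiPS-57, and 2 higher and 6 lower in LiPS-47. These are 29.4%, 35.3% and 47.1% of the measured list, beside 16.5%, 15.6% and 15.8% of all probe sets. Igf2, a fetal growth factor, was lower than in LiPS-50 by 0.68, 0.56 and 0.77 in LiPS-45, LiPS-57 and LiPS-47 (limma adjusted p = 0.00294, 0.00962 and 0.00121). Sgce was lower by 0.40, 0.30 and 0.37. Ndn was lower by 0.49 in LiPS-45 and by 0.45 in LiPS-57, and Plagl1, a zinc finger gene, by 0.57 in LiPS-47. Nnat went the other way and was higher than in LiPS-50 by 0.44, 0.89 and 0.74, and it was the 1 gene of the list called among the other lines, at -0.45 in LiPS-45 minus LiPS-57 (limma adjusted p = 0.0269). Most fibroblast markers were also called higher in LiPS-50, and their relation to these genes was not tested.

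Factors that maintain imprints and DNA methylation were all measured, 18 of 18. Against LiPS-50, 6 were higher and 0 lower in LiPS-45, 6 higher and 2 lower in LiPS-57, and 4 higher and 2 lower in LiPS-47, with 0 called among the other lines. These are 33.3%, 44.4% and 33.3% of the list, beside the same 16.5%, 15.6% and 15.8%. Dnmt3b, a DNA methyltransferase, was higher than in LiPS-50 by 0.70, 0.61 and 0.67, and Dnmt3a by 0.35, 0.43 and 0.42. Zfp57, which protects methylated imprints, was lower by 0.31 in LiPS-47, and Dnmt3l, a methyltransferase cofactor, by 0.30 in LiPS-57.

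The genes most like each member over the 12 arrays were ranked by Pearson correlation of log2 values among 12953 genes with a mean at or above the 40th percentile. These r values are descriptions, and the arrays of a line share their cells. For Dlk1 they were Mmp2 (0.987), Timp2 (0.987), Ddr2 (0.987), Pmp22 (0.984) and Bgn (0.984). For Rtl1 they were Dnah10 (0.902), Igf1r (0.824), Dusp14 (0.811), Csrnp2 (0.807) and Blcap (0.799). For Dio3 they were Arhgap33os (0.928), Irx1 (0.922), Lims2 (0.890), Abhd3 (0.887) and Fam160a1 (0.887). No gene was on more than 1 of these 3 lists.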

How the data were processed

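The authors deposited 1 table of probe set intensity values on a linear scale for 12 arrays. Per the submitters' processing notes, GCOS 1.4 was used. How probes were summarised, corrected for background and normalised is not given in the sources used here. Array quartiles on the log2 scale lay within 0.0954 of each other, so the deposited scale was kept and log2(value + 1) was analysed. Of 35556 probe sets, 6617 numbered below the annotated ones were left out as a control block, which rests on their numbering alone, and 28939 were tested. Arrays compared by pairs had at most 0.607% of values in common.

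Tests used limma 3.58.1 in R 4.3.3 (two-sided, Benjamini-Hochberg adjustment over all probe sets, threshold 0.05), on 8 residual degrees of freedom plus a prior of 4.06, and were tried on simulated data. In the test against Meg3 the prior had 14.2, since all probe sets share the Meg3 values. Competence used line as a random block (consensus correlation 0.183).

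The genes and the lists were chosen with earlier results of these data known. Named were the 3 genes, Meg3, up to 4 members of each list with the smallest p, the microRNA genes opposite Rtl1, Wdr25, Begain and Ppp2r5c, and the 5 genes most like each member. Alternatives covered scaling, pseudocount, dim probe sets, the control block, the replicate number, a covariate for fibroblast markers and each array left out. The number of arrays limits the precision.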

Additional observations from a re-analysis of the deposited data

How the results depend on the processing

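The 3 Dlk1 calls against LiPS-50 kept their direction and passed under the scaling, pseudocount, dim probe set, control block, replicate block and each-array-left-out alternatives. They missed the threshold only with the fibroblast and feeder median as a covariate, at -0.12, -0.095 and -0.15. Of all values under alternatives, 462 of 486 for pairs of lines, 351 of 381 for the difference from Meg3, 74 of 75 for competence and 63 of 72 for relations within lines kept direction and side of the threshold.

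Same-numbered cultures did not deviate together (correlations from -0.169 to 0.121, over 0.1 in 4 of 18 pairs, and 5 of 12 arrays correlated best with their own number). With the replicate block, Dio3 passed in LiPS-45 minus LiPS-50 (-0.42, adjusted p = 0.0187) and LiPS-47 minus LiPS-50 (-0.41, adjusted p = 0.0224), and relative to Meg3 in the latter (-0.44, adjusted p = 0.0342). The block changed no other call.

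Log2(value + 16) gave passing Dio3 differences of -0.29 (LiPS-45 minus LiPS-50) and, relative to Meg3, -0.31 (LiPS-47 minus LiPS-50), and turned Dlk1 relative to Meg3 in LiPS-57 minus LiPS-50 to 0.0015. Quantile normalization turned that value to 0.0040 and Dio3 in LiPS-45 minus LiPS-47 to 0.012. It ended the calls relative to Meg3 of Dio3 in LiPS-45 minus LiPS-47 (-0.31) and Rtl1 in LiPS-45 minus LiPS-50 (-0.22). That Dio3 call was also lost with the control block included (-0.36, adjusted p = 0.0825) and, in an alternative chosen after seeing the data, without moderation (-0.36, adjusted p = 0.113). The cause was not tested.

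With the covariate, further values turned sign: Dlk1 for competence (0.0062), Dlk1 relative to Meg3 in LiPS-57 minus LiPS-50 (0.46), Dio3 (0.018) and Rtl1 (-0.074) in LiPS-45 minus LiPS-47, and Rtl1 in LiPS-57 minus LiPS-50 (0.16). Calls relative to Meg3 were lost for Dio3 in LiPS-45 minus LiPS-47 (-0.29) and LiPS-57 minus LiPS-50 (0.17), Rtl1 in LiPS-45 minus LiPS-50 (-0.12) and Dlk1 in LiPS-47 minus LiPS-50 (-0.39). Meg3 itself missed the threshold in LiPS-45 minus LiPS-50 (0.55) and LiPS-57 minus LiPS-50 (-0.56). The covariate itself does not overlap between LiPS-50 and the other lines, and it equals the value of Mmp2, the gene most like Dlk1. The cause was not tested.

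With each array left out, the values whose sign or call changed ranged as follows. Pairs of lines: Dlk1 LiPS-45 minus LiPS-57 from -0.13 to 0.017, Rtl1 LiPS-45 minus LiPS-47 from -0.079 to 0.075, LiPS-45 minus LiPS-50 from -0.027 to 0.13 and LiPS-47 minus LiPS-50 from -0.0047 to 0.089, Dio3 LiPS-45 minus LiPS-47 from -0.13 to 0.066 and LiPS-45 minus LiPS-50 from -0.51 to -0.30, Meg3 LiPS-47 minus LiPS-50 from -0.027 to 0.098. Relative to Meg3: Dlk1 LiPS-57 minus LiPS-50 from -0.067 to 0.033, Rtl1 LiPS-45 minus LiPS-47 from -0.40 to -0.26, LiPS-45 minus LiPS-50 from -0.37 to -0.27 and LiPS-47 minus LiPS-50 from -0.062 to 0.080, Dio3 LiPS-45 minus LiPS-47 from -0.54 to -0.25 and LiPS-47 minus LiPS-50 from -0.55 to -0.26.

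Among relations, those of the marker median with Dlk1 and Rtl1 lost the threshold without LiPS-45 (0.902 and 0.761) and without LiPS-47 (0.867 and 0.908), where fewer arrays remain. Dlk1 with Rtl1 passed without LiPS-57 (0.851). Signs turned for Dlk1 with Dio3 (0.143) and the marker median with Dio3 (0.0430) without LiPS-50, for Meg3 with Dio3 (0.113) without LiPS-47, and for Rtl1 with Dio3 (-0.0782) without LiPS-45. Leaving out dim probe sets gave Dio3 no value, and another probe set per gene could not be tried, since each gene has 1.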
